A study of Capitella teleta with 12 samples.

Results

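Single embryos of the annelid *Capitella teleta* at the 8-cell stage (4 embryos) were compared with single embryos at the 32-cell stage (5 embryos), which are separated by 2 rounds of cleavage. These are 9 of the 12 embryos of the series. The 3 remaining embryos, at the 16-cell stage, took no part in the comparison and were read afterwards as libraries that had not been used to define any class of genes. Embryos carry no treatment or genetic change in the labels, each was extracted on its own, and its polyadenylated RNA was measured by CEL-Seq, in which reverse transcription from the poly(A) tail adds a barcode and a molecular identifier (UMI) to the 3′ end of a transcript before it is amplified. The labels do not say which embryos came from the same brood. The p-values set the difference between stages against the spread between these embryos. If brood differed with stage, brood and stage cannot be told apart. The study asked which components of the TGF-β superfamily are present at the 8- and 16-cell stages, which it associates with organizer activity. It compared them with the 32-cell stage, after that activity. The organizer is cell 2d, a micromere of the second quartet, and the paper describes its signal as needed through the 16-cell stage.

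An early embryo divides on transcripts that were laid down in the egg. These maternal transcripts are cleared in the course of cleavage, and the embryo's own genome starts to be transcribed, a handover known as the maternal-to-zygotic transition. Counts from whole embryos give each transcript's share of all the RNA counted. They do not separate maternal from zygotic copies, synthesis from decay, or fewer cells from less RNA per cell, and a change in the length of a poly(A) tail can alter how well a transcript is captured.

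The count table holds 32415 gene models, of which 19649 had a count in at least 1 of the 9 embryos. Tests were run on the 10783 whose counts over the 9 embryos came to 10 or more. Totals ranged from 286145 to 451149 counts per 8-cell embryo and from 236321 to 408777 per 32-cell embryo. A stage total of 3 counts, the limit that a count of 0 allows, corresponded to 2.18 CPM (counts per 1000000 counts of the embryo) over the 8-cell embryos and to 1.91 CPM over the 32-cell embryos, for counting error only. A count cannot exceed the number of different identifiers, a limit that bears on the most abundant gene models described further on. All 9 embryos were kept.

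Of the 10783 gene models tested, 1251 were raised at the 32-cell stage (11.6%) and 1054 were lowered (9.77%), with the threshold at a Benjamini-Hochberg adjusted p of 0.05 (quasi-likelihood F test of edgeR). Together these 2305 gene models were 21.4% of those tested. The embryos of the stages did not overlap for 1111 gene models that were higher at the 32-cell stage (10.3% of those tested) and for 1013 that were lower (9.39%), together 19.7%. The other 8478 gene models are called "not called" here, since a p that misses the threshold does not show that a level stayed the same. For 4705 of them (55.5%) the 95% interval of the change lay within 2-fold in either direction, and these held 66.1% of the counts on average over the embryos. The standard errors behind these intervals use fold changes drawn toward 0, and are unreliable where counts are few or the change is near 0. Gene model 103368, at 3.16 CPM, had an SE of 0.04, and gene model 100462, at 9.12 CPM, an SE of 1.22. The number is therefore not a count of gene models shown to stay within 2-fold.

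The raised gene models held 7.74% ± 0.57 of an embryo's counts at the 8-cell stage (SD, n = 4, from 6.91% to 8.20%) and 16.9% ± 0.51 at the 32-cell stage (n = 5, from 16.3% to 17.6%). The lowered gene models held 19.3% ± 1.02 at the 8-cell stage (from 18.4% to 20.6%) and 10.5% ± 0.70 at the 32-cell stage (from 9.29% to 11.1%). Gene models that were not called held 72.3% ± 0.50 and 71.5% ± 0.51. Those with fewer than 10 counts held 0.722% and 1.12% on average. These values describe the classes in the embryos that defined them and are not a test.

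**Figure D1:**
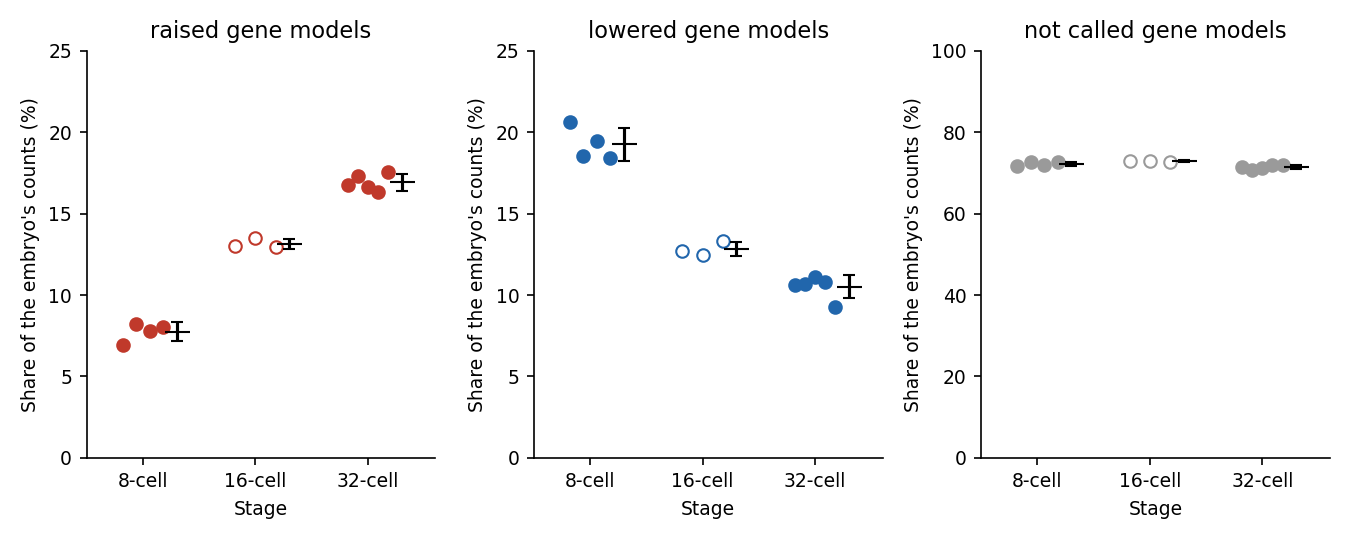
Share of each embryo's counts (%) in gene models raised, lowered or not called between the 8- and 32-cell stages. Each filled point is 1 embryo used to define the classes, each open point a 16-cell embryo that was not, and the bars give the mean and SD of a stage. The 16-cell embryos lie between the other stages for raised (12.9% to 13.5%) and lowered gene models (12.4% to 13.3%), and the axis of the third panel has its own scale.

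The classes were defined again without an embryo and then read in that embryo. Each left-out embryo was thus read on its own list, of 915 to 1218 raised and 830 to 1054 lowered gene models. The raised gene models held 7.54% ± 3.74 over the 4 left-out 8-cell embryos and 14.1% ± 0.90 over the 5 left-out 32-cell embryos. The share of the lowered gene models was 16.7% ± 0.53 and 9.97% ± 1.47. These means and SDs mix differences between lists with differences between embryos. Read on its own list, each share lay nearer to its own stage than to the other in 9 of 9 embryos. The widest departure was 8-cell replicate 2, in which the gene models raised without it held 12.9%, where the other 8-cell embryos held from 9.28% to 11.2% and the 32-cell embryos from 20.01% to 21.8%.

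The distance between embryos was also measured without any classes. At an equal depth of 236321 counts per embryo, 2 embryos of different stages differed in 20.2% of their counts on average over 20 pairs (from 17.8% to 24.0%). Embryos of the same stage differed in 13.7% over 6 pairs at the 8-cell stage (from 12.5% to 15.1%) and in 13.1% over 10 pairs at the 32-cell stage (from 11.9% to 14.6%). No pair across stages was as close as any pair within a stage. The mean distance between stages exceeded that within stages by 6.86 percentage points (two-sided exact permutation test, p = 0.00794, the smallest that all assignments of the embryos to the stages allow). The larger part of the distance across stages was also present between embryos of the same stage at this depth.

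Between the stage means, 15.7% of the counts moved from one set of gene models to another. Raised gene models gained 9.19 percentage points and lowered ones lost 8.76. Within the gene models not called, 5.82 points of gains stood against 6.65 points of losses, a net change of -0.82, and the sum of such differences includes the sampling spread of each gene model. The gain was concentrated in few gene models. Of the raised gene models, 40 (3.2%) carried 25% of the gain and 134 (10.7%) carried 50%, while 673 (53.8%) were needed for 90%. The loss was spread a little wider, with 61 lowered gene models (5.79%) for 25%, 184 (17.5%) for 50% and 686 (65.1%) for 90%.

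Most of the gain came from gene models that already had counts at the 8-cell stage. The 143 raised gene models with 0 counts over the 4 8-cell embryos made up 11.4% of the class and 2.7% of its gain. A further 514 (41.1%) had counts but lay under 10 CPM and carried 34.6% of the gain. The 379 that started between 10 and 100 CPM carried 26.1%, and the 215 that started at 100 CPM or more carried 36.6%. Falls to 0 counts were fewer. Of the lowered gene models, 14 had 0 counts over the 5 32-cell embryos and carried 0.363% of the loss. Here a 0 had to hold over 1569700 counts, against 1373768 over the 4 8-cell embryos for the 143 raised ones. The 14 and the 143 are therefore not on equal terms. Both sets passed the filter only through the stage that had counts, and a count of 0 does not show absence. In 190 (18%) of the lowered gene models less than 25% of the 8-cell level was left, in 409 (38.8%) between 25% and 50%, and in 441 (41.8%) at least 50%. The last of these groups carried 56.3% of the loss.

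Gene models counted in every embryo of one stage and in none of the other were few. There were 120 with 0 counts in 4 of 4 8-cell embryos and a count in 5 of 5 32-cell embryos, of which 95 were called. They held from 0.190% to 0.235% of the counts of a 32-cell embryo, with a median level of 9.22 CPM and a highest level of 259 CPM. Of these, 98 were counted in 1 or more 16-cell embryos and 43 in all 3. The reverse pattern was seen for 21 gene models, of which 8 were called, and these held from 0.0240% to 0.0282% of the counts of an 8-cell embryo. At the 16-cell stage 14 of these were counted in 1 or more embryos and 0 in all 3. A count of 0 limits these levels to the floors given above and does not show that a transcript was absent.

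More gene models were detected at the 32-cell stage. At equal depth 10764 ± 234 gene models had a count in an 8-cell embryo and 11927 ± 180 in a 32-cell embryo, a difference of 1164 (two-sided exact permutation test, p = 0.00794, adjusted p = 0.0238 over the 3 measures of breadth), and every 32-cell embryo lay above every 8-cell embryo. The unthinned counts gave a difference of 1049 with an exact permutation p of 0.0635, and there 8-cell replicate 3, the embryo with the highest total, lay among the 32-cell embryos. The 100 most abundant gene models of an embryo held 17.1% ± 1.75 of its counts in 8-cell embryos and 17.2% ± 1.59 in 32-cell embryos (exact permutation p = 0.825, adjusted p = 0.825). The effective number of gene models, which is the exponential of the Shannon entropy of the shares, was 3327 ± 251 and 3477 ± 237 (exact permutation p = 0.381, adjusted p = 0.571). Neither of these differences exceeded the spread between embryos. The limit on UMI counts compresses the most abundant gene models, and thinning does not undo it. At equal depth the share was 14.7% in 8-cell replicate 3, which had the highest total. It was 19.6% in 32-cell replicate 5, which had the lowest. Without 8-cell replicate 3 the difference in this share was -0.64 points (exact permutation p = 0.536). How far original depth shapes these 2 measures was not tested.

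Over the whole classes fitted rises were larger than fitted falls. The fitted log2 fold change had a median of 1.25 over the raised gene models (quartiles 0.92 and 1.77) and of -0.96 over the lowered ones (quartiles -1.28 and -0.69), against 0.05 over all 10783 tested. A change of at least 2-fold was fitted for 886 raised (70.8%) and 489 lowered gene models (46.4%), and for 1553 (14.4%) of all tested. At least 4-fold were 253 raised and 62 lowered gene models, at least 8-fold 114 and 13, and at least 16-fold 67 and 2. The raised class had the lower median level, 32.6 CPM against 75.6 CPM for the lowered class, both as the mean of the 2 stages. Fitted changes of gene models with few counts are drawn toward 0 by a prior count of 2.

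**Figure D2:**
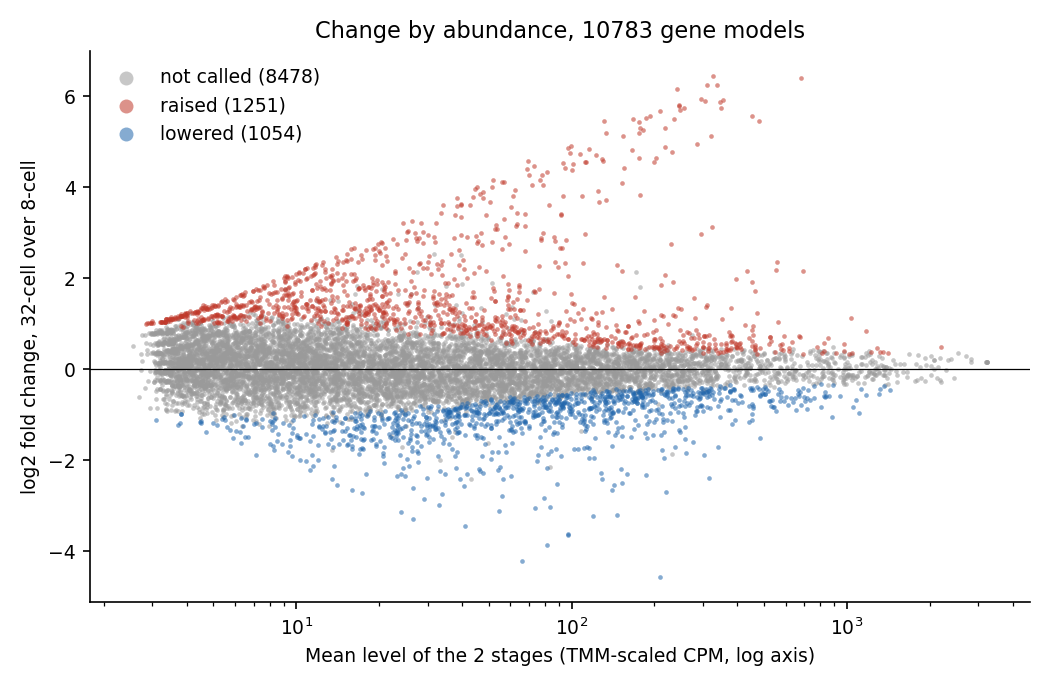
Log2 fold change (32-cell over 8-cell) against mean level of the 2 stages (TMM-scaled CPM, log axis) for the gene models tested, each point 1 gene model, coloured by class. The upper arm of the cloud reaches a log2 fold change of 6.45 and the lower arm -4.57, and the most abundant gene models at the far right lie on 1 spot near 0.17 because of the limit on UMI counts.

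The calls and the fitted size of change varied with abundance. Below 10 CPM, 8.74% of 3194 gene models were raised and 1.72% lowered. Between 10 and 30 CPM 11.6% of 2756 were raised and 7.26% lowered, between 30 and 100 CPM 12.9% and 14.6% of 2567, and between 100 and 300 CPM 13.4% and 19.4% of 1543. The highest shares were seen between 300 and 1000 CPM, where 17.8% of 583 gene models were raised and 19.9% lowered. The median log2 rise within the raised gene models went from 1.49 at 10 to 30 CPM to 0.74 at 100 to 300 CPM and 0.58 at 300 to 1000 CPM. The median fall went from -1.34 to -0.73 and -0.58 over the same classes, so rises and falls between 100 and 1000 CPM were of nearly equal size. The median standard error of a gene model also shrank, from 0.38 under 10 CPM to 0.13 at 300 CPM and above, so a small change could pass the test only in abundant gene models and the medians of called gene models depend on that precision as well as on the changes. The median size over all gene models of a class, called or not, was 0.42 under 10 CPM and 0.47 at 10 to 30 CPM. It was 0.32 at 100 to 300 CPM and 0.29 at 300 to 1000 CPM. Under 10 CPM it moved to 0.70 and 0.23 with prior counts of 0.5 and 5. Sampling spread enlarges this median too, and the median standard error was 0.35 at 10 to 30 CPM against 0.13 at 300 to 1000 CPM. How much of the trend is true change was not tested.

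**Figure D3:**
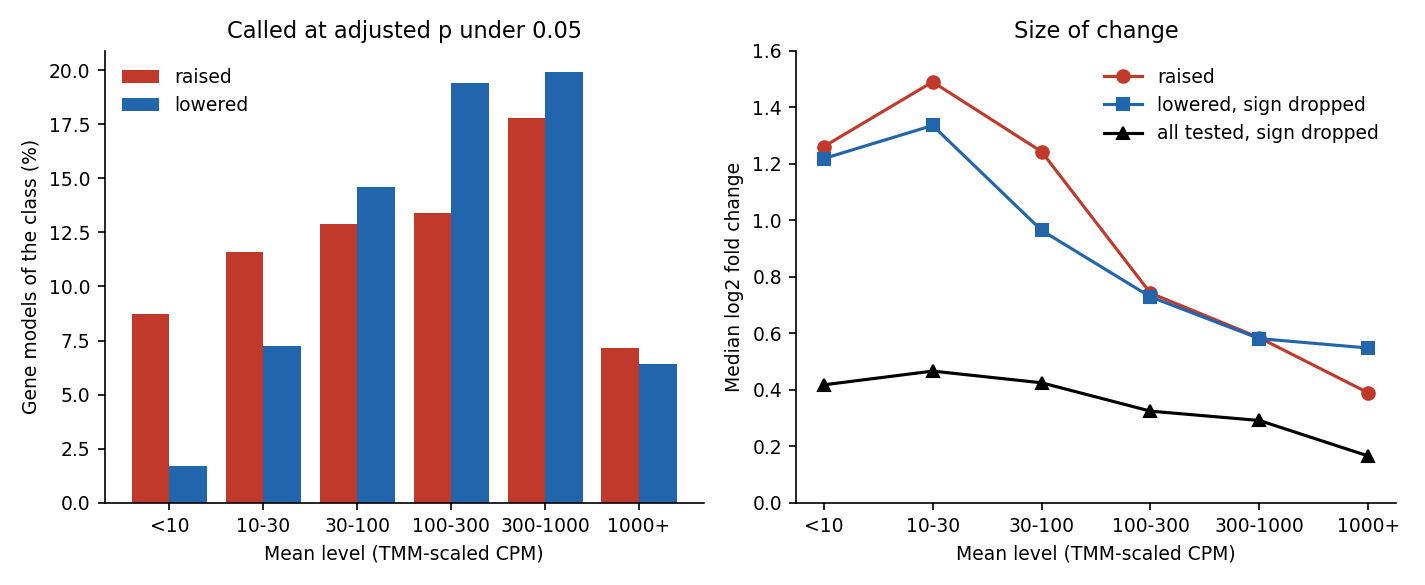
Left, percent of the gene models of each class of mean level (TMM-scaled CPM) that were raised or lowered (bars start at 0). Right, the median log2 fold change of raised, lowered (sign dropped) and all tested gene models (sign dropped) in the same classes. Calls are most frequent at 300 to 1000 CPM (17.8% raised and 19.9% lowered), while the medians fall from 1.49 and 1.34 at 10 to 30 CPM to 0.58 and 0.58 at 300 to 1000 CPM.

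At 1000 CPM or more the pattern broke off, with 10 raised and 9 lowered of 140 gene models (7.14% and 6.43%) and a median size of 0.17. These gene models held from 18.6% to 23.5% of an embryo's counts. Here the counts themselves are compressed, since the identifiers run out as molecules increase. When the counts were converted to molecules by binomial statistics, 15 of the 140 were raised and 22 lowered, and the median size was 0.22. The 4 most abundant gene models that were not called lay between 3029 and 3043 CPM in the mean of the 8-cell embryos and between 3406 and 3421 CPM in that of the 32-cell embryos. Their log2 fold change of 0.17 reflects the totals of the embryos, because 5 gene models, these included, had at least 1008 counts in all 9 embryos. Nothing can be read from these counts about whether their levels changed.

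The 16-cell embryos, which took no part in the classes, lay between. Raised gene models held 13.1% ± 0.29 of their counts (n = 3) and lowered ones 12.8% ± 0.45. By gene model, the median level of the raised class went from 8.42 CPM at the 8-cell stage to 30.02 CPM in the 16-cell and 51.2 CPM in the 32-cell embryos. The 16-cell mean lay between the other 2 stages for 817 raised gene models (65.3%), above both for 356 and below both for 49. The median of the lowered class went from 102 to 63.0 and 45.1 CPM, and the 16-cell mean lay between for 878 (83.3%), above both for 26 and below both for 145. Among gene models not called it lay between for 37.6%.

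The strongest rises and falls were both under way in the 16-cell embryos. The 67 gene models raised at least 16-fold held 0.0171%, 0.0140%, 0.0403% and 0.0344% of the counts in the 4 8-cell embryos. They held 0.224%, 0.192% and 0.184% in the 3 16-cell embryos, and 2.34%, 2.51%, 2.25%, 2.54% and 2.44% in the 5 32-cell embryos. The 3 stages did not overlap. On the log scale 44.7% ± 2.32 of the rise was present at the 16-cell stage (SD over 3 embryos, from 42.9% to 47.3%), where an equal fold in each of the 2 divisions gives 50%. These 67 gene models were 26% of the whole gain of the raised class. Their median level was 2.94 CPM at the 8-cell stage, 17.5 CPM in the 16-cell and 322 CPM in the 32-cell embryos. In 65 of them the 8- and 32-cell embryos did not overlap, and 4 had 0 counts over the 8-cell embryos.

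The 62 gene models lowered at least 4-fold held 0.776%, 0.976%, 0.712% and 0.622% of the counts in the 8-cell embryos. They held 0.164%, 0.127% and 0.171% in the 16-cell embryos, and between 0.0838% and 0.0974% in the 32-cell embryos. By the 16-cell stage 75.4% ± 7.47 of this fall had taken place on the log scale (from 70.2% to 84.0%). In 62 of 62 the 16-cell mean lay below the 8-cell mean, and the median level went from 82.2 to 11.0 and 8.39 CPM.

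**Figure D4:**
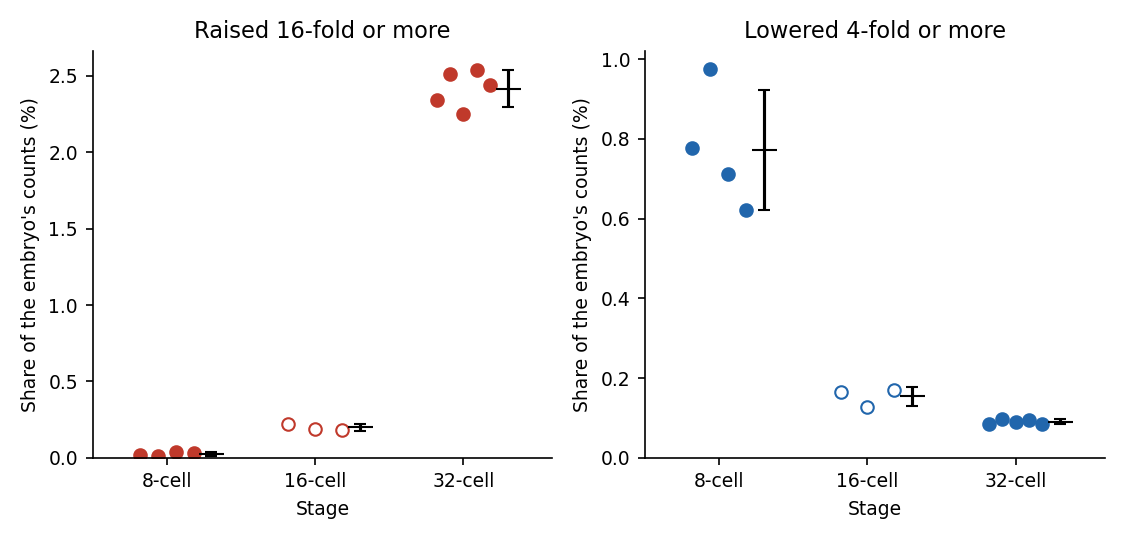
Share of each embryo's counts (%) in the 67 gene models raised at least 16-fold (left) and in the 62 lowered at least 4-fold (right). Filled points are the embryos that defined the sets, open points the 16-cell embryos, and bars the mean and SD. The left set has reached 0.200% on average at the 16-cell stage against 2.42% at the 32-cell stage, and the right set is at 0.154% against 0.772% at the 8-cell stage. The axes are linear, on which a constant fold per division gives a late rise and an early fall.

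The log scale was used, after the values on the linear scale had been seen, because the linear part of a shift depends on its size and direction. In percentage points of share, 7.25% of the rise of the 67 gene models was present at the 16-cell stage, and an equal fold per division would give 9.47%. For the 62 lowered gene models the values were 90.6% and 74.5%. Over the whole classes, 67.7% ± 2.81 of the log rise and 67.2% ± 5.74 of the log fall were present at the 16-cell stage, so the classes did not differ beyond the spread between embryos. At 2-fold or more the values were 62.6% ± 2.43 for the 886 raised and 68.7% ± 5.05 for the 489 lowered gene models, with overlap between the embryos. At 4-fold or more they were 55.5% ± 3.38 for the 253 raised gene models, beside 75.4% for the lowered ones, and for the 114 raised at least 8-fold 49.3% ± 1.61. These values rest on 3 embryos, share the 8- and 32-cell means that also chose the sets, and were not tested.

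The strongly raised gene models were short. The span of a gene model on the assembly, introns included, had a median of 1262.5 bases for those raised at least 8-fold, 1950 for 4- to 8-fold, 2815 for 2- to 4-fold and 4209 for raised gene models under 2-fold, against 2931.5 over all tested. Spans under 1000 bases made up 39.3%, 29.5%, 17.9% and 6.09% of these sets, against 12.6% of all tested. The lowered gene models went the same way with a smaller range, with medians of 1666.5 for at least 4-fold, 2216 for 2- to 4-fold and 2787 under 2-fold. The whole raised and lowered classes had medians of 2830 and 2571. A 3′ tag is counted once per transcript, so the count is not a sum over the length of a transcript. Span is not transcript length, and an effect of length on capture or amplification was not tested. Abundance moves with fold size as well, and its part in this order was not tested.

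Of the gene models that pass the test without overlap and have a mean of at least 10 CPM (750 raised and 794 lowered), the 8 with the largest rise went from between 0.51 and 9.32 CPM at the 8-cell stage to between 483 and 1356 CPM at the 32-cell stage, with log2 fold changes from 5.89 to 6.45. At the 16-cell stage they lay between 13.4 and 75.9 CPM, and their spans were from 545 to 1346 bases. The files and tables pair none of these gene models with a gene name, so identifiers are given for 2 that rose and 2 that fell.

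Gene model 193831 (bases 111374 to 112234 of a scaffold that the annotation table does not name, assembly Capca1, span 861 bases) stood at 0, 0, 2.05 and 3.23 CPM in the 8-cell embryos. It stood at 560, 691, 663, 655 and 683 CPM in the 32-cell embryos. No embryo overlapped, and the 16-cell embryos lay at 41.5, 28.4 and 26.4 CPM (over library totals). The fitted log2 change was 6.45 (SE 0.22), and its adjusted p by the edgeR test was 1.1e-13. With 2 counts at the 8-cell stage against 1016 at the 32-cell stage the ratio of levels was 445 (exact 95% interval 123 to 3676, counting error only).

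Gene model 222506 (bases 100884 to 101839, span 956 bases) showed the largest gain in CPM of the raised gene models ranked here. It stood at 3.52, 0, 14.4 and 19.4 CPM in the 8-cell embryos and at 1225, 1287, 1320, 1411 and 1535 CPM in the 32-cell embryos. The 16-cell embryos lay at 38.3, 30.8 and 54.9 CPM, between the other stages and without overlap. Its log2 fold change was 6.41 (SE 0.25, edgeR adjusted p = 3.1e-13).

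Gene model 147788 (bases 236476 to 238332, span 1857 bases) showed the largest log2 fall of those ranked. It stood at 465, 395, 396 and 375 CPM in the 8-cell embryos and at 9.88, 23.7, 6.26, 6.97 and 4.44 CPM in the 32-cell embryos. The 16-cell mean was 9.53 CPM, close to the 32-cell mean of 10.2 CPM. The fitted log2 change was -4.57 (SE 0.22, edgeR adjusted p = 5.3e-12).

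Gene model 216316 (bases 4429 to 6057, span 1629 bases) stood at 148, 160, 117 and 97.0 CPM in the 8-cell embryos. In 4 of the 5 32-cell embryos it had 0 counts and in replicate 5 it stood at 8.88 CPM, and the 16-cell mean was 1.06 CPM. Its log2 fold change was -4.20 (SE 0.34), and with 181 counts against 2 the ratio of levels was 103 (exact 95% interval 28.2 to 860.4, counting error only).

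The 8 gene models with the largest fall went from between 47.9 and 408 CPM to between 0 and 18.9 CPM, with log2 fold changes from -4.57 to -3.10 and spans from 824 to 3920 bases. At the 16-cell stage they lay between 0.68 and 15.3 CPM. Those with 0 counts at the 32-cell stage were at least 28.6-fold and at least 24.8-fold lower, computed against 3 counts over the stage.

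By difference of CPM the picture was another. The 6 largest gains ran from 766 to 1346 CPM, with log2 fold changes between 1.12 and 6.41. The 6 largest losses ran from -719 to -473 CPM, with log2 fold changes between -1.51 and -0.55, so the largest losses of counts came from abundant gene models that fell by less than 4-fold. Some of the strongly raised gene models have near-equal spans and levels (537 and 535 bases, at 942 and 891 CPM at the 32-cell stage, or 216 and 216 bases, at 1139 and 943 CPM). If these are near-identical copies, reads could be split between them, and their single values are uncertain.

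Components of the TGF-β superfamily show how the turnover reached 1 signalling pathway. Secreted ligands bind pairs of type I and type II receptors, which phosphorylate receptor Smads. These enter the nucleus with Smad4, while inhibitors such as Noggin bind ligands outside the cell and Smad6/7 acts inside it. In the BMP branch the receptor Smad is Smad1/5/8, and in the Activin/Nodal branch it is Smad2/3. Of the 33 components listed by the study 32 are in the count table. Among 4 8-cell embryos (1373768 counts) 20 had a count, and among 5 32-cell embryos (1569700 counts) 28 did, so these numbers are not on equal terms. *BMP10*, *ADMP*, *BMP Receptor 2* and *tolloid* had 0 counts in the former and 1 count each in the latter. Only the unknown BMP-like ligand went the other way, with 6 counts against 0. More gene models of all kinds were detected in 32-cell embryos, and whether the excess is particular to these components was not tested. The 18 with at least 10 counts were tested, and 5 of them were raised and 1 lowered, beside 11.6% and 9.77% of all gene models tested. Their median log2 fold change was 0.45, against 0.05 over all tested. The filter admits gene models that are high at only 1 stage, as Noggin A was, and these counts are a description. By role, 2 of 5 tested ligands were raised, 1 of 4 receptors, 1 of 4 Smads and 1 of 5 inhibitors, and 1 inhibitor was lowered. By branch, 4 of 8 tested BMP components were raised and 1 lowered. In the Activin/Nodal branch 1 of 7 was raised, and 0 of 3 shared components were called. The 4 raised BMP components were *BMP2/4*, *Smad1/5/8*, the BMP antagonist *Noggin A*, and *Activin Receptor 1*, which the study's grouping places with the BMP receptors. The lowered one was *TSG*, a modulator of BMP signalling. The tally mixes parts that carry the signal with inhibitors, so it gives no direction of signalling. A difference between the branches was not tested.

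Among the ligands, *BMP2/4*, which signals through the BMP branch, stood at 77.5, 123, 98.5 and 107 CPM in the 8-cell embryos and at 122, 168, 138, 139 and 160 CPM in the 32-cell embryos. The stages overlapped in 1 embryo each. The fitted log2 change was 0.49 (SE 0.17, edgeR adjusted p = 0.0447), and the call held in 7 of 19 other settings, with edgeR or DESeq2 adjusted p from 0.0187 to 0.331. Leaving out 8-cell replicate 1, 3 or 4 gave an edgeR adjusted p of 0.119, 0.106 or 0.0656, and leaving out 32-cell replicate 2, 3, 4 or 5 gave 0.113, 0.0581, 0.0683 or 0.0902. *Activin/inhibin/myostatin-like 4*, a ligand of the Activin/Nodal branch, stood at 116, 61.7, 94.4 and 107 CPM and then at 145, 140, 194, 125 and 124 CPM, without overlap. Its log2 fold change was 0.60 (SE 0.19, edgeR adjusted p = 0.0303), and the call held in 14 of 19 settings, with adjusted p from 0.0127 to 0.0920. It was lost without 8-cell replicate 2 (edgeR adjusted p = 0.0846) or 3 (0.0727) and without 32-cell replicate 1 (0.0563) or 3 (0.0920). *BMP5/8* (0.34, SE 0.26), *BMP3* (0.05, SE 0.61) and *activin/inhibin/myostatin-like 5* (-0.63, SE 0.41) did not pass the test. The value of *BMP3* and its sign depended on single embryos, with a log2 fold change of 0.96 without 8-cell replicate 3 and of -0.31 without 32-cell replicate 3. Of the other ligands in the table, *nodal* had 0 counts at the 8-cell stage and 5 counts over the 5 32-cell embryos, too few to be tested.

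Among the receptors, *Activin Receptor 1* stood at 7.04, 18.5, 8.21 and 12.9 CPM in the 8-cell embryos and at 23.0, 42.6, 46.9, 20.9 and 26.6 CPM in the 32-cell embryos, without overlap. The fitted log2 change was 1.14 (SE 0.32, edgeR adjusted p = 0.0163), and the call held in 16 of 18 settings, being lost without 8-cell replicate 3 (edgeR adjusted p = 0.0627) and with all 12 embryos in the fit (0.0541). *Activin Receptor 2*, a type II receptor, had a log2 fold change of 0.41 (SE 0.17) with an edgeR adjusted p of 0.0988, which became 0.0180 without 8-cell replicate 2. *TGF-β Receptor 1* (-0.50, SE 0.26) and *BMP Receptor 1* (-0.58, SE 0.35) did not pass. *BMP Receptor 2* had 0 counts over the 8-cell embryos and 1 count over the 32-cell embryos.

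Among the Smads, *Smad1/5/8* stood at 0, 3.09, 6.15 and 9.70 CPM in the 8-cell embryos and at 59.3, 52.1, 18.8, 48.8 and 26.6 CPM in the 32-cell embryos. No embryos overlapped, though the 32-cell embryos spread widely. Its log2 fold change was 2.12 (SE 0.38, edgeR adjusted p = 0.000431). *Smad2/3*, the receptor Smad of the other branch, had a log2 fold change of 0.73 (SE 0.29, edgeR adjusted p = 0.0846), with no overlap between 8-cell embryos (from 9.26 to 22.6 CPM) and 32-cell embryos (from 24.4 to 43.8 CPM). *Smad4* (0.58, SE 0.36) and *Smad6/7* (-0.06, SE 0.33) did not pass.

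The inhibitors held both extremes of the list. *Noggin A*, an antagonist that binds BMP ligands, had 0 counts in 4 of 4 8-cell embryos and stood at 39.5, 87.6, 40.7, 41.8 and 35.5 CPM in the 32-cell embryos, at least 23.9-fold higher (against 3 counts over the stage). Over the 3 16-cell embryos it had 4 counts, against 82 over the 32-cell embryos. The edgeR adjusted p was 5.1e-06. *TSG* (twisted gastrulation), which binds BMP ligands, went the other way, from 187, 268, 306 and 246 CPM to 151, 107, 156, 122 and 124 CPM, without overlap. The fitted log2 change was -0.91 (SE 0.16, edgeR adjusted p = 0.000443), and in the 16-cell embryos it already stood at 144, 147 and 134 CPM (over library totals). *SMURF*, a ubiquitin ligase that acts on the pathway's receptors and Smads, had a log2 fold change of -0.02 with a 95% interval from -0.39 to 0.35. The calls of *Smad1/5/8*, *Noggin A* and *TSG* held in every setting in which they were tested, as did those of the 4 numbered gene models. The numbered gene models were picked for their large changes in these same embryos, so their calls holding is no independent support.

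**Figure D5:**
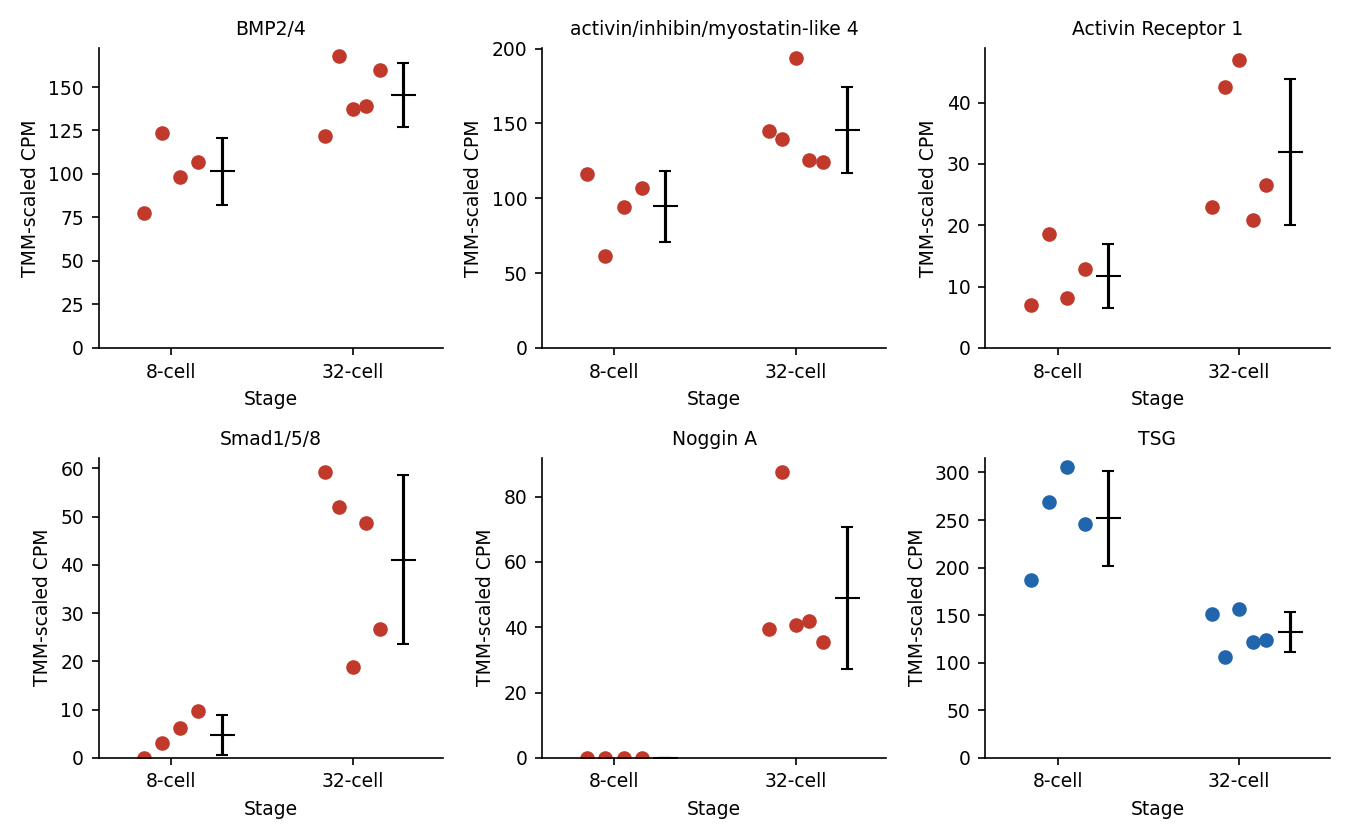
Level (TMM-scaled CPM) of the 6 TGF-β components that passed the test, in each 8-cell (4 points) and 32-cell embryo (5 points), with the mean and SD beside them and an axis from 0 in each panel. *Noggin A* goes from 0 in 4 of 4 embryos to between 35.5 and 87.6 CPM, *TSG* drops from between 187 and 306 CPM to between 107 and 156 CPM, and *BMP2/4* is the only panel in which the stages overlap.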

How the data were processed

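Single-embryo CEL-Seq libraries were sequenced on 1 lane. After demultiplexing, the authors aligned reads with Bowtie2 (release not stated in the methods) to the Capca1 assembly of *C. teleta*, ran an htseq-count script to count UMIs for every gene model, and describe a conversion of UMI numbers to transcripts by binomial statistics. The counts they deposited are unnormalized whole numbers that stop at the number of different UMIs. They were used as deposited, with the conversion as an alternative. The deposited CPM table and the authors' own test results (a mean expression, fold changes and p-values per gene) were not used. ERCC spike-ins were added, but the count table has 0 ERCC rows, so total RNA per embryo is not known. There were 0 columns of other samples.

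Gene models with at least 10 counts over the 9 embryos were tested in edgeR 4.0.16 (R 4.3.3) with TMM scaling, the quasi-likelihood F test without covariates and Benjamini-Hochberg adjustment, threshold 0.05, and a prior count of 2 in fold changes. Standard errors are the fold change over the square root of F. CPM values are TMM-scaled counts per 1000000, except 16-cell values and ratios, which use library totals. Distances are 50% of the summed absolute difference of count shares, and equal depth is the smallest total of the 9. Exact tests used all assignments of the 9 embryos in Python 3.11.15 with scipy 1.17.1. DESeq2 1.42.0 was an alternative. The scripts were tested on simulated data. Pairs of embryos of a stage differed by more than sampling noise (chi-square per degree of freedom from 1.81 to 3.02). All were treated as separate embryos, as the paper describes them. No repeat libraries were available for reference, so these values alone cannot exclude repeats.

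Named gene models were, of those past the threshold without overlap and with a mean of at least 10 CPM, the 8 raised and 8 lowered by fold, the 6 by CPM difference in each direction, the 4 most abundant not called, and the 33 TGF-β components of the study's list. The members and lists were chosen with earlier results of these data known. Of the gene models, 31968 (98.6%) matched a locus tag of the RefSeq table of the same assembly, where scaffolds are not named. Lists by product name and sequence features other than span were not analysed here.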

Additional observations from a re-analysis of the deposited data

Results flagged for a closer look

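In 9 of 55 groups of 4 or 5 embryos 1 embryo lay far from the others of its stage. The rule would flag about 1 in 20 groups of independent, normally distributed values. These groups share the same 9 embryos and several hold few counts, so an excess over that rate cannot be read from them. Lowered gene models held 9.29% of the counts of 32-cell replicate 5, against 10.6% to 11.1% in the other 32-cell embryos. *BMP3* stood at 90.3 CPM in 8-cell replicate 3, against 14.1 to 22.6 CPM in the other 3. *Noggin A* stood at 87.6 CPM in 32-cell replicate 2, against 35.5 to 41.8 CPM, and *NOMO* at 16.5 CPM in 32-cell replicate 1, against 3.48 to 7.10 CPM. *Smad4* stood at 6.26 CPM in 32-cell replicate 3, against 34.8 to 45.0 CPM. *Activin/inhibin/myostatin-like 5* stood at 13.3 CPM in 32-cell replicate 5, against 0 to 3.29 CPM. Gene model 193831 stood at 560 CPM in 32-cell replicate 1, against 655 to 691 CPM, gene model 147788 at 23.7 CPM in 32-cell replicate 2, against 4.44 to 9.88 CPM, and gene model 216316 at 8.88 CPM in 32-cell replicate 5, against 0 in the other 4. Several of these rest on few counts. Of the 9 flags, 2 each concern 32-cell replicates 1 and 2, and 3 concern 32-cell replicate 5. The rest concern 8-cell replicate 3 and 32-cell replicate 3.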

How the results depend on the processing

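Between 843 and 1364 gene models were raised and between 709 and 1152 lowered over other scalings, filters, fits, thinning, conversion and DESeq2, and 0 calls changed direction. Without 1 embryo the counts were from 915 to 1218 raised and from 830 to 1054 lowered. At an adjusted p under 0.01 they were 665 and 587. The gain in share of the raised gene models (9.19 points) was 8.23 after thinning, 10.6 and 6.75 at thresholds of 0.1 and 0.01, 6.10 for changes of at least 2-fold, 8.38 with converted counts, 6.59 with classes defined without the embryo measured, and from 7.63 to 10.3 without 1 embryo. The loss of the lowered ones (-8.76 points) was -7.32 with DESeq2, -10.1 and -6.35 at those thresholds, and -3.18 for at least 2-fold. It was -6.74 with classes defined without the embryo measured, and from -9.15 to -7.44 without 1 embryo. The values of 6.59 and -6.74 points average over lists that differ from embryo to embryo, so they are not changes of a single class. The gain in gene models detected was 1049 unthinned (exact permutation p = 0.0635) and from 1090 to 1262 at equal depth without 1 embryo, and the distance between stages exceeded that within by 6.38 to 7.43 points. Embryos of the 2 stages with the same replicate number had correlations from -0.08 to 0.06, and 1 of 4 was best with its own number. The highest correlation with another number ranged from 0.03 to 0.12 over the 8-cell embryos. No pair of known brood was available to gauge this check, so it showed no pairing by number but cannot exclude it. With a replicate block 1082 gene models were raised and 882 lowered. Levels under about 2 CPM per stage cannot be told from 0, and levels near the UMI limit cannot show a change.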
